A study of Homo sapiens with 33 samples.

Results

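The promoters described here carried H3K27me3 in wild-type human ESCs and had at most the 50% level of it after EZH2 was lost and then supplied again. H3K27me3 was read in windows reaching 2500 bases to either side of each annotated transcription start site on chromosomes 1 to 22, as log2 RPM, that is reads scaled to the size of the library. Members were chosen by the measured H3K27me3 of EZH2+/+ and EZH2-/- +EZH2 ESCs. For each gene name the window with the highest EZH2+/+ H3K27me3 value was taken among those with EZH2+/+ input under a limit of 5.35 RPM. A window counted as marked when its EZH2+/+ H3K27me3 value was over the same limit. It became a member when its value in EZH2-/- +EZH2 ESCs was lower than in EZH2+/+ ESCs by at least 1 on the log2 scale. Of 34448 gene names, 6132 were marked and 455 of these were members (7.42%). The other 5677 marked promoters, called the other marked promoters below, serve as the comparison.

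All 4 genotypes were H9 human ESCs, an established embryonic line, grown on mouse feeders and sorted for the surface marker SSEA4. EZH2+/+ ESCs were the unedited parental cells, and EZH2-/+ ESCs had lost 1 allele to CRISPR/Cas9 editing. EZH2-/- ESCs had both alleles edited and were measured without doxycycline (DOX). They were derived from an EZH2-/+ line that carried an inducible EZH2 transgene, inserted by piggyBac, and the same kind of cells given DOX at 1 µg/ml are the EZH2-/- +EZH2 ESCs. The edited cells went through picked clones while the parental cells did not, so that clone and genotype cannot be told apart. RNA-seq covered 3 libraries per genotype, and native ChIP-seq of H3K27me3, H3K4me3, H3K27ac, H3K4me1 and input gave 1 column per genotype, each a mean over 2 libraries by the sample labels and by the steps between low values. EZH2 itself was mapped by crosslinked ChIP-seq in EZH2+/+ ESCs alone, with 1 library. Since the ChIP table holds no separate replicates, its values are given as a description with no test.

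H3K27me3 is the repressive methyl mark that Polycomb repressive complex 2 (PRC2) places on histone H3, with EZH2 as its main catalytic subunit. In pluripotent cells PRC2 gathers at CpG-rich promoters of developmental genes, and its other subunits can bind methylated H3 and thereby favour further deposition next to existing marks. A promoter may carry H3K27me3 and the active mark H3K4me3 together, and acetylation of the same lysine, H3K27ac, is found at active promoters and excludes methylation of that residue.

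The sequences below show what such promoters look like, with 3 members that the results turn on and PAX6, a marked promoter that is not a member. Each run holds the 270 bases before the start site and the first 30 bases of the transcript, read 5′ to 3′ along the transcribed strand from hg38, the build of the table. Every CG dinucleotide is in capitals, since a high CG density is a known feature of PRC2-marked promoters. All 4 runs lie on the minus strand. NODAL, the TGF-β family ligand, is at chr10:70441638-70441937. BMP4, a morphogen of early mesoderm, is at chr14:53953400-53953699. IGDCC4, a cell-surface protein of the immunoglobulin family, is at chr15:65396400-65396699. PAX6, a regulator of eye and neural fate, is at chr11:31817845-31818144.
NODAL: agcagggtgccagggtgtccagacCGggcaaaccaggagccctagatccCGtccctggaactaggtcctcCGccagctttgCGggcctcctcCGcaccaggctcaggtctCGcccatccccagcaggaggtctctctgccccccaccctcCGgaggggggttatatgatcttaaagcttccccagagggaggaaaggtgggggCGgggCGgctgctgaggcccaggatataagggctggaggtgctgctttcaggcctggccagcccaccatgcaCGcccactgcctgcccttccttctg
BMP4: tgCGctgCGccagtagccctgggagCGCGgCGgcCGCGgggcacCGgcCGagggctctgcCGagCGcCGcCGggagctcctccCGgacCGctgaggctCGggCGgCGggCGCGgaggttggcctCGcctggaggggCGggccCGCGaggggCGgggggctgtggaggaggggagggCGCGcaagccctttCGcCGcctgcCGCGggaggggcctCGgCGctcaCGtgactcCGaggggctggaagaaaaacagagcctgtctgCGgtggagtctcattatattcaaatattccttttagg
IGDCC4: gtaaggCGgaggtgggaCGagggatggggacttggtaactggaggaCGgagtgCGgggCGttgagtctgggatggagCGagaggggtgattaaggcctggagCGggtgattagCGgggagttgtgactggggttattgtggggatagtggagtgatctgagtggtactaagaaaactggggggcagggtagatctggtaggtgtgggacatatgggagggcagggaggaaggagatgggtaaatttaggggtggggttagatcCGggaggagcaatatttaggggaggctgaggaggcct
PAX6: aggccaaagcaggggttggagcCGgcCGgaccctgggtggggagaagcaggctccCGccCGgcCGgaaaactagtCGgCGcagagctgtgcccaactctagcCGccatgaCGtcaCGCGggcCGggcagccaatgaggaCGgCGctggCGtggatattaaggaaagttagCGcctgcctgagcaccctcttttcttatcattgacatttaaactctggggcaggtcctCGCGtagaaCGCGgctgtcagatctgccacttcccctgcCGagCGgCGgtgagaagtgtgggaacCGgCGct

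These 300-base runs held 10 CG in NODAL, 36 in BMP4, 9 in IGDCC4 and 25 in PAX6, so that members with few and with many CG are both shown. Over the 455 members the median was 7.33 CG per 100 bases, against 8 at the other marked promoters and 2 at promoters without H3K27me3 in EZH2+/+ ESCs. Fewer than 3 CG per 100 bases were found at 111 members (24.4%) and at 996 other marked promoters (17.5%). Over the whole window the medians were 3.54, 3.74 and 1.72. When all marked promoters were split into 5 equal groups by the CG density of the window, members made up 9.98% of the poorest group and 5.15% of the richest. By gene type 321 members were protein coding (70.5%) and 108 were long noncoding (23.7%), shares that at the other marked promoters were 72.9% and 23.5%.

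The rule used the H3K27me3 values of EZH2+/+ and EZH2-/- +EZH2 ESCs, so their gap is a description. The members had a median of 8.42 RPM in EZH2+/+, 5.71 in EZH2-/+, 0.752 in EZH2-/- and 3.34 RPM in the EZH2-/- +EZH2 ESCs. At the other marked promoters the medians were 12.1, 12.6, 0.831 and 9.78 RPM. After induction the members therefore stood at a median of 42.6% of their EZH2+/+ level, and the other marked promoters at 81.7%. Measured as the share of the loss that was regained, the medians were 36.0% and 80.1%. The log2 difference at the members reached -3.49 and had a median of -1.23. Counting error alone gave this difference a standard error with a median of 0.186 on the log2 scale (0.0693 to 0.375). Over all 34440 gene names with a window under the input limit, marked or not, 7.56% had a difference of -1 or lower. Promoters without H3K27me3 in EZH2+/+ ESCs had a median difference of -0.29 themselves, and with this shift taken off 195 promoters passed the rule.

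The lowest 10 members show how far below the others a promoter could stay. IGDCC4 had 6.33 RPM of H3K27me3 in EZH2+/+, 1.53 in EZH2-/+, 0.506 in EZH2-/- and 0.562 RPM in the EZH2-/- +EZH2 ESCs, a difference of -3.49 that left it below its EZH2-/- +EZH2 input of 1.48 RPM. FAM20A, which encodes a pseudokinase needed for enamel formation, had 13.9, 9.31, 1.69 and 1.51 RPM in the same order, a difference of -3.20. TDGF1, a NODAL co-receptor of pluripotent cells, had 11.2, 2.07, 1.86 and 1.26 RPM, a difference of -3.15. FAM20A and TDGF1 were among 11 members with no more H3K27me3 with DOX than without it. The overlapping promoters of LIME1, RP4-583P15.14 and SLC2A4RG on chromosome 20 form 1 locus, with differences of -3.32, -3.23 and -3.03. AP000711.1, LCNL1, ECE2 and ETV4 followed at -2.95, -2.88, -2.72 and -2.66. PAX6, which is not a member, had 50.6, 56.1, 2.5 and 43.4 RPM. It was a strongly marked promoter, as the other marked promoters had an EZH2+/+ median of 12.1 RPM. Its EZH2 signal was 7.62 RPM, against their median of 0.858 RPM.

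Just inside the threshold lay RP13-238F13.5, UBTD1, CAV2, EPS8L2 and RP4-758J18.10, each with a difference between -1.0028 and -1.0018. Just outside it lay P4HA2, CPNE2, CYP4A22-AS1 with LINC00853 in nearly the same window, and SYT5, each between -0.99988 and -0.99908. The counting error of these promoters was 0.118 to 0.198 on the log2 scale, so the line between members and the rest divides values that do not differ beyond it.

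**Figure D1:**
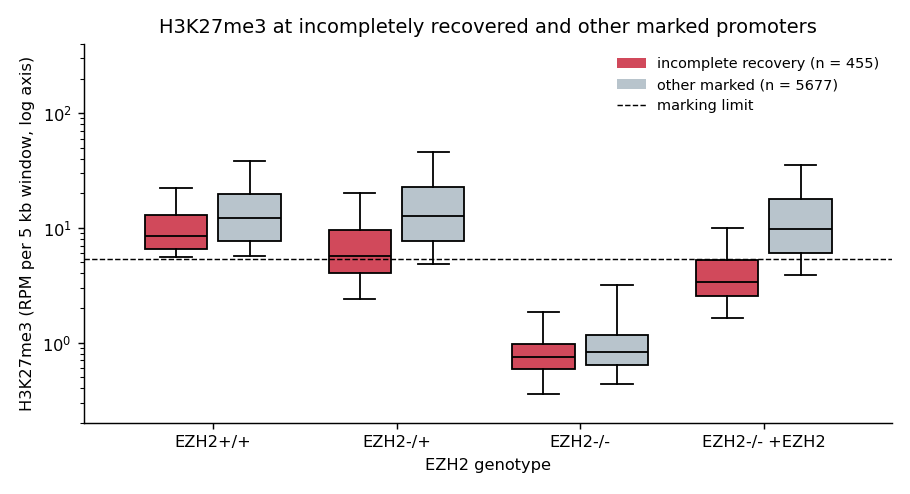
H3K27me3 (RPM, log axis) in each of the 4 genotypes for the 455 members and the 5677 other marked promoters; boxes span the quartiles with the median as a line, and whiskers reach the 5th and 95th percentiles. The members' median goes from 8.42 RPM in EZH2+/+ to 5.71 in EZH2-/+, 0.752 in EZH2-/- and 3.34 RPM in the EZH2-/- +EZH2 ESCs, while the others return to 9.78 RPM.

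The EZH2-/+ column was not part of the rule. Here 405 members (89.0%) were below their EZH2+/+ value, compared with 2138 of the other marked promoters (37.7%), and the median log2 differences were -0.50 and 0.08. A difference of -1 or lower was found at 80 members (17.6%), at 19 other marked promoters (0.335%) and at 6.28% of all chosen windows. This comparison shares the EZH2+/+ column with the rule, so that a high reading there enters both. The comparison of EZH2-/- +EZH2 with EZH2-/+ ESCs shares the other column of the rule in the same way. In it 438 members (96.3%) and 5085 other marked promoters (89.6%) were lower in EZH2-/- +EZH2 ESCs, and 123 members (27%) against 81 others (1.43%) were lower by at least 1. When EZH2-/+ took the place of EZH2+/+ in the rule, 219 promoters passed, of which 99 were among the 455.

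In EZH2-/- ESCs 401 members (88.1%) and 4485 of the other marked promoters (79.0%) had no more H3K27me3 than input. With DOX 444 members (97.6%) and 5608 others (98.8%) were above their EZH2-/- value, 410 (90.1%) and 5561 (98.0%) by at least 1 on the log2 scale, and 17 members remained at or below input compared with 2 of the other marked promoters. Most members thus regained a part of the mark. In EZH2-/- +EZH2 ESCs 347 members (76.3%) were at or below the limit that defined a marked promoter, as were 1032 of the others (18.2%).

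The members had less EZH2 in EZH2+/+ ESCs. Their median EZH2 signal was 0.612 RPM against 0.858 RPM at the other marked promoters, in 1 library. Among 5 equal groups of all marked promoters by EZH2 signal, the share of members went from 11.3% in the lowest group to 1.48% in the highest. By EZH2+/+ H3K27me3, which the rule used, the share went from 11.7% to 2.04%. The 5 members with the most EZH2 were PRAC2 (5.97 RPM), FOXD3-AS1 (5.45), FOXD3 (5.29), HOXB13 (5.02) and PRAC1 (4.72), which come from the FOXD3 and HOXB13 regions. HOXB13 and its neighbours PRAC1 and PRAC2 had 55.1, 52.8 and 54.7 RPM of H3K27me3 in EZH2+/+ ESCs and 25.3, 18.3 and 23.2 RPM after induction.

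Several families of developmental regulators had no member or 1, against 7.42% of all marked promoters. With so few marked promoters per family, such counts cannot be told apart from that share, and no test was run. HOX genes, which set position along the body axis, had 39 marked promoters and 1 member, HOXB13. None of the 14 T-box, 12 LIM homeobox, 10 SOX, 9 PAX or 5 GATA promoters that were marked was a member. FOXD3 and FOXO1 were 2 members among 34 FOX promoters, and NKX1-2 was 1 among 14 NKX promoters. The ligand families were likewise too small to be told apart from the share of all marked promoters. They had WNT3 and WNT5A among 17 WNT ligands (11.8%), BMP4 among 11 BMP and GDF ligands (9.09%) and FGF8 among 15 FGF ligands (6.67%). Solute carriers had 15 members of 123 (12.2%), the lowest of them SLC2A4RG, SLC2A2, SLC46A1 and SLC4A8, although SLC2A4RG takes its name from a transporter gene that it regulates and is not itself a carrier. Neurotransmitter receptors had 5 of 73 (6.85%), namely GRIK1, CHRNB4, GABRA4, GABRB1 and GABRA2. Among 14 marked genes of the Nodal and Activin pathway, a list drawn up after the members were known, TDGF1, LEFTY1, NODAL and the inhibitory SMAD7 were members (28.6%).

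The members were not spread evenly over the chromosomes. Chromosome 17 held 70 members among 451 marked promoters (15.5%), against 385 of 5681 (6.78%) on the other chromosomes. Chromosome 13 was lowest with 2 of 115 (1.74%), and chromosomes 21 and 16 followed chromosome 17 with 12.5% and 10.6%. Within chromosome 17, 51 of 279 marked promoters (18.3%) were members from 40 Mb onward and 19 of 172 (11.0%) before it. With input subtracted within each genotype the 2 stretches had like shares, 43 of 279 (15.4%) and 28 of 172 (16.3%). The raw share was 19.6% at 40 to 50 Mb, 30.8% at 50 to 60 Mb and 28.9% at 60 to 70 Mb, and then 10.4% at 70 to 80 Mb and 6.98% beyond 80 Mb. In EZH2-/- +EZH2 minus EZH2+/+ ESCs, input and RNA were lower over the whole stretch from 40 Mb than before it. This included 70 to 80 Mb (medians -0.15 and -0.41) and the stretch beyond 80 Mb (-0.12 and -0.39). From 40 Mb onward the median input of all windows in EZH2-/- +EZH2 minus EZH2+/+ ESCs was -0.12 on the log2 scale, compared with 0.06 before 40 Mb and 0.04 on the other chromosomes. For EZH2-/- minus EZH2+/+ ESCs the input medians were -0.19, -0.02 and -0.01, and for EZH2-/+ minus EZH2+/+ ESCs they were 0.02, 0.17 and 0.08. The RNA of the 710 tested genes from 40 Mb onward had a median log2 fold change of -0.40 in EZH2-/- +EZH2 against EZH2+/+ ESCs, and the 612 genes before it had -0.16. Against EZH2+/+ ESCs these medians were -0.21 and -0.09 in EZH2-/- ESCs, and -0.26 and -0.01 in EZH2-/+ ESCs. Over the whole chromosome with input subtracted, 71 of 451 promoters on chromosome 17 passed the rule (15.7%) and 692 of 5681 elsewhere (12.2%). The part of DNA amount in the count of members on chromosome 17 was not tested, and no copy number was measured. FAM20A, ETV4 and the HOXB13 region, described below, lie beyond 40 Mb.

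**Figure D2:**
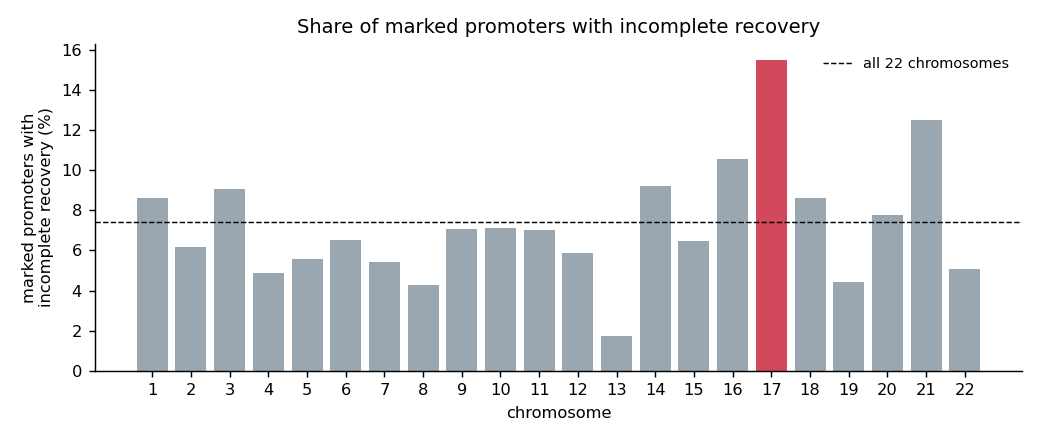
Share of marked promoters that were members (percent) on each of chromosomes 1 to 22. Chromosome 17 stands at 15.5%, above chromosome 21 at 12.5%, and chromosome 13 at 1.74% is the lowest.

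The 455 windows merged into 369 separate loci, and the 6132 marked windows into 4770. The members are a small part of the marked windows, so these counts do not compare how often windows overlap. Of the 369 loci 79 held 2 or 3 overlapping members that share reads. When loci at most 500 kb apart were joined, 13 runs of 3 or more loci appeared, 6 of them on chromosome 17. Each span reaches from its first to its last member locus, so the share of members within it is raised by construction. Overlapping members that share reads are counted separately in these shares. One run on chromosome 17 from 48427775 to 48819553 held SKAP1, CTD-2377D24.8, CTD-2377D24.6, PRAC1, PRAC2, HOXB13 and TTLL6, that is 7 of the 23 marked promoters in its span. Another from 49845517 to 50478319 held 9 of 15, among them TAC4, ITGA3 and XYLT2, and one more from 62700932 to 63525834 held 7 of 7, among them CYB561, ACE and KCNH6. The run around ETV4 from 43542285 to 44327306 held 8 of 13. On chromosome 7 from 116208061 to 116528777 all 5 marked promoters were members, at TES, RP11-667F14.1, CAV2, AC002066.1 and CAV1. In a run on chromosome 1 the members were TMEM63A, LEFTY1 and MIXL1, 3 of 4 marked promoters, and in another from 94060749 to 94544137 they were ABCA4, ARHGAP29, RP11-148B18.1 and F3, 4 of 4. The remaining runs lay on chromosomes 6, 11, 16 and 17.

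The members had 1014 further windows that did not overlap the chosen one, at 222 gene names, with a median difference of -0.54, most of them not marked in EZH2+/+ ESCs. Promoters without H3K27me3 in EZH2+/+ ESCs had a median of -0.29. The 112 further windows that were marked, at 37 gene names, had a median of -1.03, and 57 of them (50.9%) were lower by at least 1. They can overlap each other and share reads, and the share at further windows of the other marked promoters was not computed.

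The marks that the rule did not use also differed between members and the rest. In EZH2-/- +EZH2 ESCs the gap in medians was larger for H3K27ac than for H3K4me3 or H3K4me1, while in EZH2-/- ESCs it was larger for H3K4me3 than for H3K27ac. The members had a median of 1.83 RPM of H3K27ac in EZH2+/+, 2.36 in EZH2-/+, 3.30 in EZH2-/- and 2.22 RPM in the EZH2-/- +EZH2 ESCs. At the other marked promoters it was 1.53, 1.81, 2.43 and 1.44 RPM, so that there the level after induction was no higher than in EZH2+/+ ESCs. The median log2 difference of EZH2-/- +EZH2 from EZH2+/+ ESCs was 0.36 at the members and -0.05 at the others, and 0.12 at promoters without H3K27me3. An increase of at least 1 was found at 30 members (6.59%), at 58 others (1.02%) and at 1.84% of all chosen windows. For EZH2-/- against EZH2+/+ ESCs the medians were 0.86 and 0.66, and an increase of at least 1 was found at 167 members (36.7%), 1377 others (24.3%) and 9.18% of all windows.

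The members with the most H3K27ac after induction relative to EZH2+/+ ESCs included genes of the Nodal pathway. LEFTY1, a secreted inhibitor of NODAL, had 2.47 RPM of H3K27ac in EZH2+/+, 4.46 in EZH2-/+, 6.90 in EZH2-/- and 8.18 RPM in the EZH2-/- +EZH2 ESCs. TDGF1 had 2.67, 5.13, 7.43 and 7.11 RPM in this order, and NODAL had 2.21, 3.50, 4.30 and 4.33 RPM. At these promoters acetylation with DOX was near or above its level without DOX. PMEPA1, a target and inhibitor of TGF-β signalling, had 2.58, 5.28, 7.95 and 6.87 RPM. PMAIP1, which encodes the pro-apoptotic protein NOXA, had 2.22, 4.05, 4.75 and 5.03 RPM.

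For H3K4me3 the median log2 difference of EZH2-/- +EZH2 from EZH2+/+ ESCs was 0.11 at the members and 0.07 at the others, for EZH2-/- ESCs it was 0.19 and -0.05, and for EZH2-/+ ESCs 0.59 and 0.53. In EZH2-/+ ESCs 388 members (85.3%) and 5164 others (91.0%) were above their EZH2+/+ value. H3K4me1 differed by 0.11 at the members and 0.01 at the others in EZH2-/- +EZH2 ESCs, and input by 0.06 and 0.07. A subset of members behaved in another way. At 27 members (5.93%) and at 38 others (0.669%) H3K4me3 in EZH2-/- +EZH2 ESCs was lower than in EZH2+/+ ESCs by at least 1, so that both marks were low. Of the 27, 25 were lower by at least 1 in EZH2-/- ESCs as well and 9 in EZH2-/+ ESCs. Some of the 27 had little H3K4me3 in EZH2+/+ ESCs already, under the limit of 5.35 RPM. Examples are SLC2A2 (2.89 RPM), IGDCC4 (2.54 RPM) and CCDC27 (1.82 RPM). The EZH2+/+ H3K4me3 column was the shallowest, at 3.43 M reads per library. Promoters without H3K27me3 had a median H3K4me3 difference of -0.26 in EZH2-/- +EZH2 ESCs themselves. The part of background in these differences was not tested. GALNT3, which encodes an enzyme that starts O-glycans, had 14.1 RPM of H3K4me3 in EZH2+/+, 6.95 in EZH2-/+, 1.42 in EZH2-/- and 1.74 RPM in the EZH2-/- +EZH2 ESCs. Its H3K27me3 was 9.85, 2.85, 3.28 and 1.82 RPM. ZFP30, a zinc finger gene, had 13.1, 14.1, 4.08 and 1.31 RPM of H3K4me3. The neuronal genes GRIK1, GABRA2, GABRA4, GABRB1 and NCAM2 belonged to the same subset, and GABRA2 shared its window almost entirely with RP11-436F23.1.

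**Figure D3:**
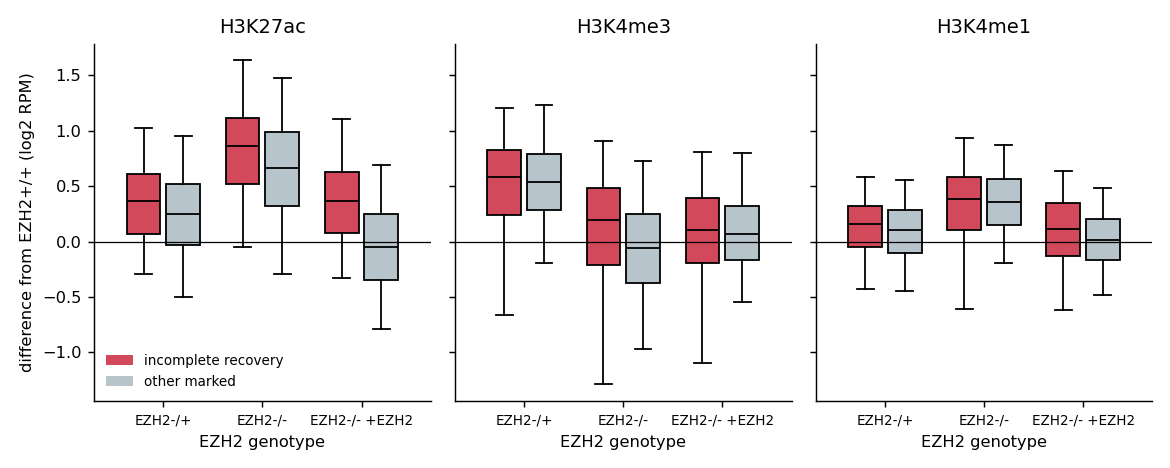
Log2 difference from EZH2+/+ ESCs in H3K27ac, H3K4me3 and H3K4me1 for EZH2-/+, EZH2-/- and EZH2-/- +EZH2 ESCs, members beside the other marked promoters; boxes span the quartiles and whiskers reach the 5th and 95th percentiles. In EZH2-/- +EZH2 ESCs the median H3K27ac difference is 0.36 at the members and -0.05 at the others, while the H3K4me3 medians are 0.11 and 0.07.

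RNA was not used to choose the members, and each of the 455 matched 1 gene of the RNA table. RNA was read per gene, whereas the chosen window covers 1 start site, so RNA from other start sites is included. The 12 libraries held 25 to 56.8 M reads, and 3 reads were worth 0.0528 to 0.120 RPM. EZH2 RNA, the check of the genotypes, was 63.8 ± 4.56 RPM in EZH2+/+, 51.2 ± 4.95 in EZH2-/+, 9.95 ± 1.44 in EZH2-/- and 304.0 ± 70.6 RPM in the EZH2-/- +EZH2 ESCs (SD, n = 3 libraries each). Genes whose average over all libraries reached 0.1 RPM were tested with limma on log2(RPM + 0.1), with Benjamini-Hochberg adjustment over 20608 genes, and a gene is called at an adjusted p under 0.05. Fold changes are on that scale and understate the change of low genes. Of the 455 members 374 passed the filter, and because a gene silent in 3 genotypes could pass through the fourth, the counts below describe these 374. The study calls the libraries biological replicates without saying whether each came from its own culture, and the p-values measure the spread between these libraries. These are bulk samples, in which fewer cells of a type and less RNA per cell cannot be told apart.

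In EZH2-/- +EZH2 against EZH2+/+ ESCs 74 of the 374 genes were higher (19.8%) and 16 were lower (4.28%). Over all genes tested 3.4% were higher and 6.9% were lower. Among 4190 other marked genes 73 were higher (1.74%) and 595 were lower (14.2%). The median log2 fold change was 0.39 over the members, -0.32 over the other marked genes and -0.15 over all genes. All 3 EZH2-/- +EZH2 libraries lay above all 3 EZH2+/+ libraries for 140 member genes (37.4%), and for 9.77% of all genes. Taking 1 gene per locus, 61 of 307 were higher (19.9%). With no filter 426 members entered the fit, of which 62 were higher and 16 were lower, beside 2.39% and 4.96% of all genes. The part of the weak or absent recovery of H3K27me3 in these RNA levels was not tested. Genes on chromosome 17 left out, the counts were 67 of 320 higher (20.9%) and 16 lower, and on chromosome 17 7 of 54 were higher (13%). The total called was 90, and 52 without EZH2+/+ library 1, 52 without EZH2+/+ library 2, 48 without EZH2-/- +EZH2 library 1 and 46 without EZH2-/- +EZH2 library 2. With library number added as a block, 123 were higher and 26 lower, beside 6.26% and 16.1% of all genes.

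The share of higher genes was larger in bands with a larger H3K27me3 gap, down to a difference of -0.25. Where the difference was -2 or lower, 11 of 29 genes were higher in EZH2-/- +EZH2 than in EZH2+/+ ESCs (37.9%). It was 17 of 56 (30.4%) between -2 and -1.5, and 46 of 289 (15.9%) between -1.5 and -1. Marked promoters that were not members continued the series, with 6.35% of 441 between -1 and -0.75, 2.76% of 798 between -0.75 and -0.5, 0.988% of 1215 between -0.5 and -0.25, 0.557% of 1077 between -0.25 and 0, and 0.759% of 659 above 0. The threshold of the rule lay within this gradient. H3K27ac ran alongside. Of the 28 tested members whose H3K27ac was higher by 1 or more, 12 had higher RNA (42.9%), compared with 57 of 279 (20.4%) with a smaller increase and 5 of 67 (7.46%) with none. The series was not particular to EZH2-/- +EZH2 ESCs. Over the same H3K27me3 bands the share higher in EZH2-/- than in EZH2+/+ ESCs was 58.6%, 66.1%, 42.6%, 26.8%, 22.3%, 15.3%, 14.5% and 4.86%.

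**Figure D4:**
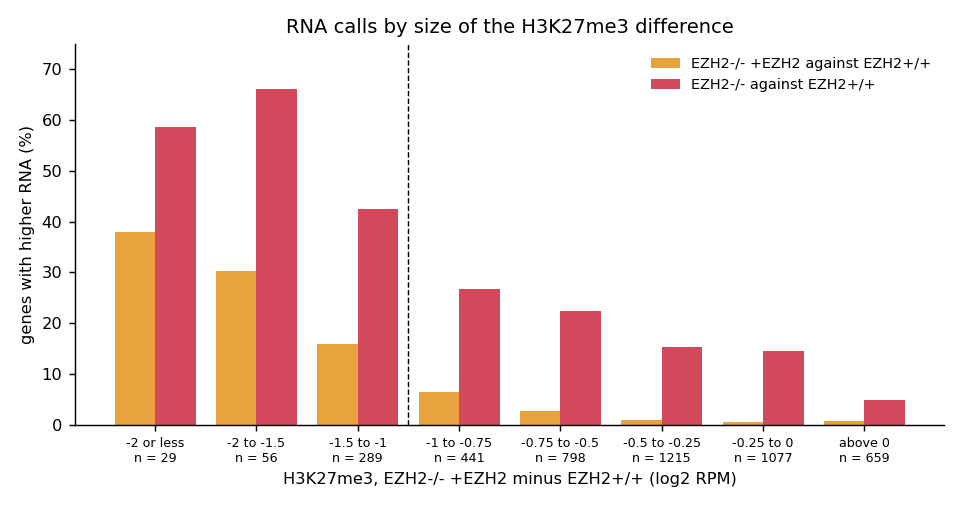
Share of tested genes with higher RNA than in EZH2+/+ ESCs (percent, limma adjusted p under 0.05) by bands of the H3K27me3 difference between EZH2-/- +EZH2 and EZH2+/+ ESCs, over all marked promoters. In EZH2-/- +EZH2 ESCs the share goes from 37.9% at -2 or lower to 0.759% above 0. In EZH2-/- ESCs it goes from 58.6% to 4.86%, with the highest share, 66.1%, between -2 and -1.5.

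In EZH2-/- against EZH2+/+ ESCs 177 of the 374 member genes were higher (47.3%) and 31 were lower (8.29%), beside 12.6% and 18.8% of all genes and 16.0% and 19.8% of the other marked genes. The median log2 fold change was 0.74. Of the 74 genes higher in EZH2-/- +EZH2 ESCs, 72 were among these 177, and the other 105 were not called in EZH2-/- +EZH2 against EZH2+/+ ESCs. Both comparisons share the EZH2+/+ libraries. The largest called log2 fold changes without DOX were those of GALNT3 and CHP2, which fell to a few reads, and of LEFTY1 (4.77), NODAL (4.64), NEURL1 (4.59), PRAC1 (4.55), HOXB13 (4.06), CLDN7 (3.99), MOG (3.76) and PPFIA4 (-3.67), where PRAC1, HOXB13 and MOG started from a few reads. The direct comparison of EZH2-/- with EZH2-/- +EZH2 ESCs called 21 member genes higher (5.61%) and 1 lower, CHODL, beside 2.63% and 0.524% of all genes. Among the 4190 other marked genes 305 were higher (7.28%) and 20 were lower (0.477%), so the share of higher genes was no larger at the members. With that block the counts were 50 and 5, beside 6.19% and 3.21%. The largest called log2 fold changes of EZH2-/- over EZH2-/- +EZH2 ESCs, apart from M1AP at a few reads, were CTD-2377D24.6 (2.43), ABCA4 (2.36), CLDN7 (2.29), NEURL1 (2.24), HOXB13 (2.02), PHLDA2 (1.95) and HSPB6 (1.86), and CHODL had -2.58. The total of 22 depended on single libraries, and became 2 without EZH2-/- library 2, 3 without EZH2-/- library 3, 13, 5 and 3 without EZH2-/- +EZH2 libraries 1, 2 and 3, and 40 without EZH2-/+ library 3. No comparison called 162 of the 374 (43.3%).

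In EZH2-/+ against EZH2+/+ ESCs 7 member genes were higher (1.87%) and 1 was lower, beside 0.18% and 0.966% of all genes. The 7 were FAM20A, PMAIP1, TDGF1, BRINP1, COBL, OSBPL10 and FOXO1 with log2 fold changes of 0.94 to 1.32, and the lower one was CH17-118O6.3 at -2.02. When only these 2 genotypes were fitted, limma called 0 of them and no other member gene, with 59 at an unadjusted p under 0.05. With the block 23 were higher and 1 lower, beside 0.718% and 2.16%. The total of 8 was 36 without EZH2-/+ library 3 and 1 without EZH2+/+ library 2 or EZH2-/+ library 2. It was 4 without EZH2+/+ library 3, EZH2-/+ library 1, EZH2-/- library 2 or EZH2-/- +EZH2 library 2, and 5 without EZH2+/+ library 1 or EZH2-/- library 1. EZH2-/+ library 3 was the lowest of its genotype for several genes below, and without it NODAL, LEFTY1, SMAD7, PMEPA1 and CAV1 were called higher in EZH2-/+ ESCs (limma adjusted p = 0.0065 to 0.043).

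TDGF1 had the clearest pattern of the Nodal genes. Its RNA was at 67.4, 60.6 and 73.0 RPM in the 3 EZH2+/+ libraries, 190, 225 and 110 RPM in EZH2-/+, 303, 291 and 279 RPM in EZH2-/-, and 253, 227 and 228 RPM in the EZH2-/- +EZH2 ESCs. The EZH2+/+ libraries lay below all others, and the EZH2-/- +EZH2 libraries came close to the EZH2-/- level without reaching it. The log2 fold change against EZH2+/+ ESCs was 1.82 with DOX (standard error 0.21, limma adjusted p = 0.00043), and 2.12 without DOX (adjusted p = 4.1e-05). In EZH2-/+ ESCs it was 1.32 (limma adjusted p = 0.010), and 1.25 without EZH2+/+ library 2 (adjusted p = 0.068). LRRC2, whose window overlaps that of TDGF1, shares part of its ChIP reads.

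NODAL was at 11.0, 9.46 and 4.15 RPM in EZH2+/+, 24.6, 49.0 and 2.78 RPM in EZH2-/+, 142, 226 and 218 RPM in EZH2-/-, and 99.2, 64.4 and 33 RPM in the EZH2-/- +EZH2 ESCs. The EZH2-/- +EZH2 libraries lay between the EZH2+/+ and the EZH2-/- libraries with no overlap on either side, and library 3 was the lowest in EZH2+/+, EZH2-/+ and EZH2-/- +EZH2 ESCs. EZH2-/- +EZH2 library 3 was also the shallowest of the 12. The log2 fold change was 2.96 with DOX (standard error 0.80, limma adjusted p = 0.033), and adjusted p = 0.0056 with the block. It lost the call without any 1 of the EZH2+/+ libraries (2.53 to 3.23, limma adjusted p = 0.070 to 0.107) and without EZH2-/- +EZH2 library 1 or 2 (2.59 and 2.90, adjusted p = 0.118 and 0.107). LEFTY1 was at 18.5, 8.77 and 8.76 RPM in EZH2+/+, 69.9, 466 and 3.9 RPM in EZH2-/+, 275, 351 and 305 RPM in EZH2-/-, and 142, 225 and 32.3 RPM in the EZH2-/- +EZH2 ESCs. The EZH2-/+ libraries spanned the whole range of the others, and the EZH2-/- +EZH2 libraries all lay above EZH2+/+. Its fold change with DOX was 3.15 (limma adjusted p = 0.13, and 0.038 with the block), and the call was also gained without EZH2-/+ library 2 or 3 (adjusted p = 0.043 and 0.012). Without DOX it was 4.77 (limma adjusted p = 0.012).

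SMAD7 encodes a SMAD that limits TGF-β signalling, and its RNA was at 5.73, 5.33 and 5.29 RPM in EZH2+/+, 9.89, 16.4 and 3.72 RPM in EZH2-/+, 33.1, 30.8 and 32.2 RPM in EZH2-/-, and 20.3, 17.6 and 9.63 RPM in the EZH2-/- +EZH2 ESCs. With DOX its libraries lay above EZH2+/+ and below EZH2-/-, and the log2 fold change was 1.46 (limma adjusted p = 0.042, and 0.010 with the block). Leaving out 1 library ended this call for each EZH2+/+ and EZH2-/- library, EZH2-/+ library 1, and EZH2-/- +EZH2 libraries 1 and 2, at adjusted p values up to 0.145. FGF8, a growth factor of gastrulation, was at 2.26, 1.75 and 1.46 RPM in EZH2+/+ and 15.8, 11.5 and 3.16 RPM in the EZH2-/- +EZH2 ESCs, a fold change of 2.15 (limma adjusted p = 0.052) that was called with the block (0.0076) and without EZH2-/+ library 2 or 3 or EZH2-/- +EZH2 library 3 (adjusted p = 0.013 to 0.027). PMEPA1 was at 7.97, 7.05 and 8.26 RPM in EZH2+/+ and 24.5, 21.9 and 11.7 RPM in the EZH2-/- +EZH2 ESCs, with a fold change of 1.24 (limma adjusted p = 0.062) that was called with the block (0.019) and without EZH2-/+ library 2 or 3 or EZH2-/- +EZH2 library 3 (0.0064 to 0.038). In both genes no EZH2-/- +EZH2 library overlapped EZH2+/+.

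Over the Nodal and Activin list as a whole, 6 of 27 genes were higher in EZH2-/- +EZH2 than in EZH2+/+ ESCs and 3 were lower, with a median log2 fold change of -0.05 against -0.15 over all genes. The higher genes were the members NODAL, TDGF1 and SMAD7 together with LEFTY2, GDF3 and FURIN, which are not members. LEFTY2 had a fold change of 3.63 (limma adjusted p = 0.022) and GDF3 of 1.93 (adjusted p = 0.0039). The lower genes were INHBB, ACVR2A and FST, of which FST, an Activin inhibitor, had a fold change of -1.90 (limma adjusted p = 0.0013). In EZH2-/- against EZH2+/+ ESCs 10 were higher and 6 lower, and the direct comparison of EZH2-/- with EZH2-/- +EZH2 ESCs called none of the 27. The genes higher with DOX were ligands, a co-receptor, a processing enzyme and feedback inhibitors, while the receptors ACVR1B and ACVR2B and the transducers SMAD2 and SMAD3 were not called in this comparison. The lower genes without DOX included ACVR1B, ACVR2A, ACVR2B and SMAD4.

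BMP4 was at 1.98, 3.52 and 2.03 RPM in EZH2+/+, 2.28, 2.90 and 2.72 RPM in EZH2-/+, 12.6, 27.2 and 29.9 RPM in EZH2-/-, and 10.52, 7.61 and 6.52 RPM in the EZH2-/- +EZH2 ESCs. The EZH2-/+ libraries overlapped EZH2+/+ and the DOX libraries lay between EZH2+/+ and EZH2-/-. The log2 fold change with DOX against EZH2+/+ was 1.69 (standard error 0.33, limma adjusted p = 0.0072), and EZH2-/- ESCs stood 1.42 above EZH2-/- +EZH2 ESCs (adjusted p = 0.037), a call lost without EZH2-/- library 2 or 3 or any EZH2-/- +EZH2 library (adjusted p = 0.052 to 0.197). Its H3K27me3 was 9.88, 10.1, 0.588 and 2.80 RPM over the genotypes. BMP4 was among 8 member genes that were higher in EZH2-/- +EZH2 than in EZH2+/+ ESCs and higher again in EZH2-/- ESCs, with NEURL1, HOXB13, CLDN7, CHST2, F3, PHLDA3 and CDH3. Against EZH2+/+ ESCs HOXB13 lost its call with DOX without any EZH2+/+ library or EZH2-/- +EZH2 library 1 (limma adjusted p = 0.053 to 0.081) and at a pseudocount of 1 RPM (0.17), and CHST2 lost it without EZH2+/+ library 2 or EZH2-/- +EZH2 library 1 or 2 (0.055 to 0.057). The step from EZH2-/- +EZH2 to EZH2-/- ESCs lost its call without EZH2-/- library 2 or 3 for all of the 8 but CLDN7 (limma adjusted p = 0.053 to 0.197). CLDN7, a tight-junction protein, was the member of this group with the highest fold change of EZH2-/- over EZH2-/- +EZH2 ESCs, 2.29 (limma adjusted p = 0.0031). It was at 2.09, 1.67 and 2.95 RPM in EZH2+/+, 4.96, 10.2 and 7.67 RPM with DOX, and 24.98, 41.3 and 45.4 RPM in EZH2-/- ESCs, 3 ranges that did not overlap. F3, the tissue factor that starts blood clotting, was at 2.2, 3.02 and 3.06 RPM, 6.92, 6.70 and 6.32 RPM, and 11.3, 16.8 and 17.2 RPM in the same order.

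FAM20A and PMAIP1 were higher in all 3 edited genotypes. FAM20A was at 10.3, 7.05 and 9.20 RPM in EZH2+/+, 25.2, 21.6 and 15.7 RPM in EZH2-/+, 64.6, 48.7 and 62.8 RPM in EZH2-/-, and 51.7, 34.5 and 27.2 RPM in the EZH2-/- +EZH2 ESCs. The DOX libraries overlapped those of EZH2-/- ESCs and lay above the rest, with a log2 fold change of 2.05 over EZH2+/+ (limma adjusted p = 0.00057). Its call in EZH2-/+ ESCs (1.22, limma adjusted p = 0.035) was lost without any 1 of 9 libraries, among them every EZH2+/+ library and EZH2-/+ libraries 1 and 2 (adjusted p = 0.054 to 0.198). PMAIP1 was at 14.0, 14.5 and 14.0 RPM in EZH2+/+, 25.9, 35.0 and 34.2 RPM in EZH2-/+, 64.9, 58.9 and 54.9 RPM in EZH2-/-, and 60.9, 68.3 and 37.0 RPM in the EZH2-/- +EZH2 ESCs. With DOX the fold change was 1.91 (limma adjusted p = 0.00027), and EZH2-/- +EZH2 overlapped EZH2-/- ESCs. In EZH2-/+ ESCs it was 1.14 (limma adjusted p = 0.020), a call lost without any EZH2+/+ library or EZH2-/+ library 2 (adjusted p = 0.051 to 0.113). ETV4, an ETS factor downstream of FGF signalling, was at 30.7, 32.0 and 28.2 RPM in EZH2+/+ and 122, 94.4 and 54.0 RPM in the EZH2-/- +EZH2 ESCs. Its fold change of 1.49 (limma adjusted p = 0.032) lost the call without any EZH2+/+ library or EZH2-/- +EZH2 library 1 or 2 (adjusted p = 0.082 to 0.123).

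The neighbours CAV1 and CAV2 encode caveolins, the coat proteins of membrane caveolae, and rose together. CAV1 was at 3.69, 7.20 and 5.62 RPM in EZH2+/+, 17, 32.4 and 6.0 RPM in EZH2-/+, 39.6, 48.4 and 32.9 RPM in EZH2-/-, and 31.4, 32.5 and 21.0 RPM in the EZH2-/- +EZH2 ESCs. The DOX libraries lay above EZH2+/+ and just below EZH2-/- ESCs, while EZH2-/+ library 3 lay within the EZH2+/+ range. In EZH2-/+ ESCs CAV1 had a fold change of 1.47 (limma adjusted p = 0.21, and 0.045 with the block). The log2 fold changes with DOX were 2.37 for CAV1 (limma adjusted p = 0.0075) and 2.16 for CAV2 (adjusted p = 0.0036).

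In the HOXB13 run RNA came from near 0. PRAC1, named for its expression in prostate, rectum and colon, was at 0.0444, 0 and 0 RPM in EZH2+/+ and at 0.0245, 0 and 0 RPM in EZH2-/+ ESCs, all at or below 3 reads. It was at 1.71, 2.29 and 4.16 RPM in EZH2-/- and at 4.91, 2.14 and 2.88 RPM in the EZH2-/- +EZH2 ESCs, where the level was as high with DOX as without it (limma adjusted p against EZH2+/+ = 4.3e-05, against EZH2-/- = 0.75). PRAC2 was at 1.37, 1.63 and 2.64 RPM in EZH2-/- and 2.88, 0.804 and 0.679 RPM in the EZH2-/- +EZH2 ESCs. HOXB13 was at 1.48, 2.05 and 4.04 RPM in EZH2-/- and 1.31, 0.295 and 0.280 RPM in the EZH2-/- +EZH2 ESCs, from at most 0.0666 RPM in EZH2+/+ ESCs. Of these 3 genes HOXB13 was lower with DOX than without it (limma adjusted p = 0.048), a call lost without any 1 of 9 libraries (adjusted p = 0.058 to 0.176). All 3 promoters had 18.3 RPM or more of H3K27me3 with DOX, above the median of the other marked promoters. PRAC1 and PRAC2 share reads in their windows.

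MOG, a myelin protein, and SCARF1, a scavenger receptor, were likewise near 0 in EZH2+/+ ESCs. MOG had 0, 0 and 0.0437 RPM there and 0.823, 0.777 and 0.200 RPM in EZH2-/- +EZH2 ESCs (limma adjusted p = 0.013, and up to 0.063 with 1 library left out). SCARF1 had 0.178, 0.456 and 0.459 RPM there and 3.42, 4.05 and 0.959 RPM in EZH2-/- +EZH2 ESCs, a log2 fold change of 2.49 (limma adjusted p = 0.013, and up to 0.068 with 1 library left out). Both were higher in EZH2-/- ESCs as well, at 1.34 to 1.48 RPM and 3.8 to 4.75 RPM.

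**Figure D5:**
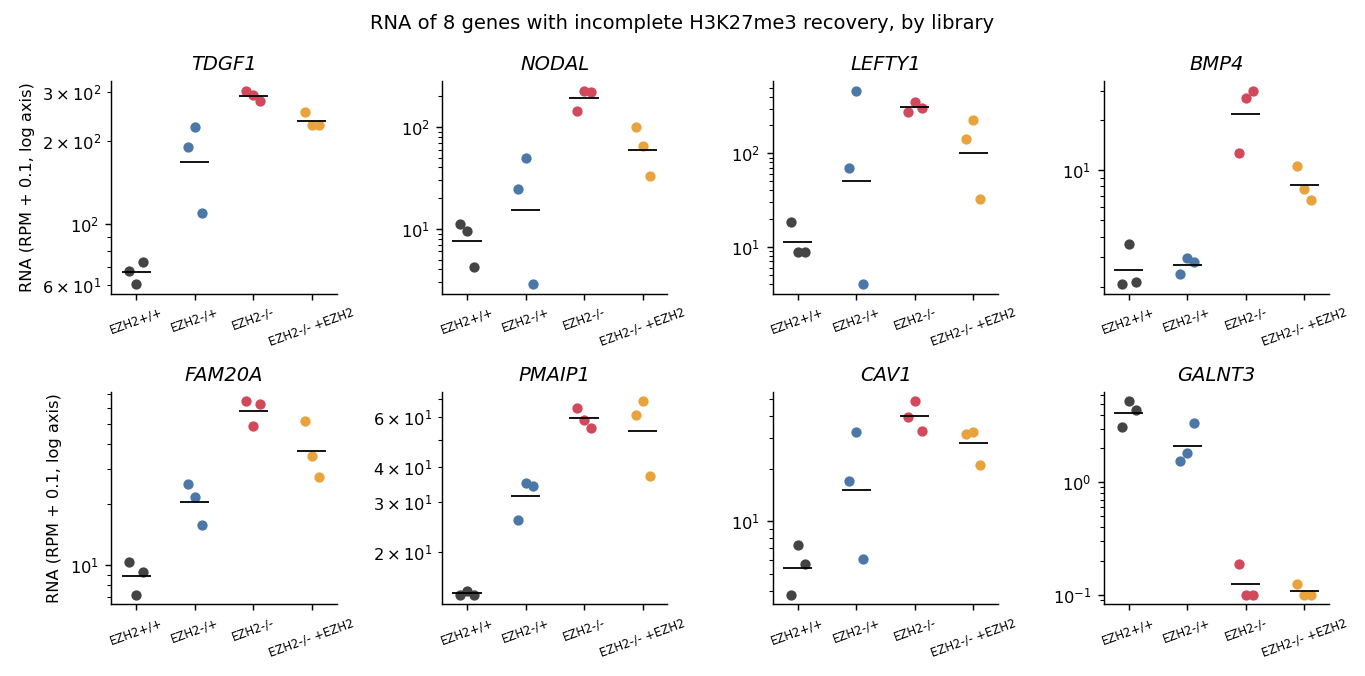
RNA level (RPM + 0.1, log axis) of TDGF1, NODAL, LEFTY1, BMP4, FAM20A, PMAIP1, CAV1 and GALNT3 in each of the 12 libraries, 3 per genotype; points are libraries and horizontal bars are means on the log2 scale. For the first 7 genes the EZH2-/- +EZH2 libraries lie above the EZH2+/+ libraries, and for GALNT3 they lie at or below 0.0257 RPM, under the EZH2+/+ range of 2.97 to 5.15 RPM.

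Not every member with little H3K27me3 had more RNA. IGDCC4, the promoter with the lowest difference, was at 26.2, 15.1 and 14.8 RPM in EZH2+/+ and 22, 13.2 and 10.8 RPM in the EZH2-/- +EZH2 ESCs, overlapping ranges with a log2 fold change of -0.30 (limma adjusted p = 0.63). SLC2A4RG and ECE2 had fold changes of -0.08 and 0.23 (limma adjusted p = 0.77 and 0.44). The chosen windows of IGDCC4 and ECE2 had 2.54 and 4.95 RPM of H3K4me3 in EZH2+/+ ESCs, under the limit of 5.35 RPM. Whether the RNA of these genes starts there or at another start site was not tested. WNT3 and MIXL1, regulators of mesoderm, had fold changes of 0.87 and 0.81 with limma adjusted p = 0.36 and 0.63, and their EZH2-/- +EZH2 libraries ranged from 7.15 to 24.8 RPM and from 9.51 to 59.9 RPM.

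The 16 lower genes included some of those with low H3K4me3. Among the 27 members with low H3K4me3, 14 were tested, 6 were lower in EZH2-/- +EZH2 than in EZH2+/+ ESCs and 0 were higher at an adjusted p under 0.05 in the same limma fit. The 6 were GALNT3, ZFP30, CHP2, NCAM2, GABRA2 and GRIK1, of which CHP2 was under the limit of 5.35 RPM of H3K4me3 in EZH2+/+ ESCs. GALNT3 was at 2.97, 5.15 and 4.30 RPM in EZH2+/+, 1.44, 1.73 and 3.24 RPM in EZH2-/+, 0.0880, 0 and 0 RPM in EZH2-/-, and 0.0257, 0 and 0 RPM in the EZH2-/- +EZH2 ESCs. Its level was thus 5 reads or fewer in each library of the last 2 genotypes (limma adjusted p = 6.2e-06 and 2.4e-05 against EZH2+/+). ZFP30 was at 2.82, 3.88 and 2.40 RPM in EZH2+/+ and 0, 0 and 0.0400 RPM in the EZH2-/- +EZH2 ESCs (limma adjusted p = 2.4e-05). CHP2, a calcineurin-like calcium-binding protein, was at 2.93, 2.74 and 3.47 RPM and then at 0.0257, 0 and 0 RPM (limma adjusted p = 0.00060). M1AP, a meiosis gene with 2.27 RPM of H3K4me3 in EZH2+/+ and 1.58 RPM with DOX, was at 1.02, 2.51 and 3.34 RPM in EZH2+/+, 0.739, 1.07 and 1.99 RPM in EZH2-/- and 0.180, 0 and 0 RPM in the EZH2-/- +EZH2 ESCs. It was lower with DOX (limma adjusted p = 0.0063) and not called without it (0.46). The call of NCAM2, GABRA2 or GRIK1 was lost in some of the fits with 1 library left out (adjusted p up to 0.101, 0.146 and 0.053).

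Lists of other genes show the state of the cells. Of 13 PRC2 genes EZH2 was higher and EZH1 and C17orf96 were lower in EZH2-/- +EZH2 than in EZH2+/+ ESCs, while SUZ12 and EED were not called. In EZH2-/- against EZH2+/+ ESCs EZH2, EZH1, EED, MTF2 and C17orf96 were lower, EED with a log2 fold change of -0.46 (limma adjusted p = 0.018). Of 19 PRC1 genes PHC1 was higher and CBX2, CBX8 and PHC2 were lower with DOX. Without DOX BMI1 was higher than in EZH2+/+ ESCs, and CBX7, PHC2 and YAF2 were lower. KDM6A, which removes H3K27 methylation, was 1 of 2 tested H3K27 demethylases and was higher in EZH2-/- +EZH2 and in EZH2-/- ESCs. Among 8 DNA methylation genes DNMT3L was higher in both. Of 8 markers of undifferentiated ESCs, POU5F1, NANOG, DPPA4 and the member TDGF1 were higher in EZH2-/- +EZH2 ESCs and 0 were lower, with a summed level of 3439 to 3979 RPM against 2394 to 2998 RPM in EZH2+/+ ESCs. In EZH2-/- against EZH2+/+ ESCs the same 4 were higher and SOX2 was lower. Of 6 endoderm markers 0 were called, with summed levels of 23.3 to 54.7 RPM and 22.5 to 49.0 RPM, whereas in EZH2-/- ESCs 4 were higher than in EZH2+/+ ESCs and the sum was 162 to 465 RPM. In EZH2-/+ ESCs 0 were called, but the sum ran from 14.0 to 453 RPM between libraries. Of 7 mesoderm markers PDGFRA was higher in EZH2-/- +EZH2 ESCs (sum 78.3 to 179 RPM against 53.5 to 84.1 RPM), and T, HAND1 and PDGFRA were higher in EZH2-/- ESCs (180 to 246 RPM). Of 5 neuroectoderm markers PAX6, SOX1 and NCAM1 were lower in EZH2-/- +EZH2 ESCs (255 to 380 RPM against 251 to 380 RPM). In EZH2-/- ESCs NES was higher and PAX6 and SOX1 were lower (376 to 420 RPM), and in EZH2-/+ ESCs SOX1 was lower. Of 5 mesenchyme markers 0 were called with DOX (643 to 893 RPM against 664 to 957 RPM), whereas in EZH2-/- ESCs COL3A1, TWIST1 and THY1 were higher and VIM was lower (498 to 771 RPM). The part of such cells in the RNA levels of the members was not tested.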

How the data were processed

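RNA-seq covered 3 libraries per genotype and ChIP-seq 1 column per genotype and mark (EZH2 in EZH2+/+ ESCs alone), grouped by the sample labels. Reads were trimmed with Trim Galore 0.4.0 and aligned to GRCh38 with Bowtie2 2.2.5 (ChIP) or TopHat2 2.0.12 (RNA), and SeqMonk counted them against Ensembl 70 genes without regard to strand, so that a gene and its antisense partner cannot be told apart. The authors deposited log2 RPM values: RNA per gene and library, with a gene without a read listed just under 1 read, and ChIP per window from non-duplicated reads, as a mean over libraries on the log2 scale. The sample labels name 2 libraries per histone mark or input column and low values lay on the steps of such a mean, whereas the study's text states a different number of replicates. The EZH2 column is 1 library. Depths and counting errors assume 2. RNA values were taken back to RPM, with 0 for a gene without a read. Low RNA values were whole multiples of 1 read within 0.02 and gave 16.6 to 36.6 M reads on genes per library. ChIP steps gave 3.43 to 23.8 M reads per library as a geometric mean, and counting errors cover counting only.

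RNA was fitted with limma 3.58.1 (R 4.3.3; all 12 libraries, trend, 20608 of 35805 genes, those averaging 0.1 RPM or more, pseudocount 0.1 RPM, Benjamini-Hochberg adjustment). On simulated data the fit was tested before use. Library numbers may pair the samples, although the labels name no pairing. Deviations from the genotype means correlated at 0.107 to 0.56 in all 18 pairs of equal number (mean 0.332) and at -0.489 to 0.245 in 36 other pairs (mean -0.159). The ranges overlap, and deviations within a genotype cancel out, so the means depend on each other. The main fit has no block, and the block fit is given where it changes a call or moves a count by over 1.5 times. No test was run on ChIP values, which have no separate replicates.

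The members and gene lists were chosen with earlier results of these data known, and the Nodal and Activin list was added after the members were seen. Named genes were the 10 lowest differences, the 5 on either side of the threshold, the 10 largest called fold changes per comparison, the 5 highest EZH2 signals, runs of 3 or more loci, and up to 4 members of each list with 3 or more. Genes outside these, such as LEFTY1, SMAD7, CAV1, PMEPA1 and FGF8, were chosen after their values were seen. Some gene names in the ChIP table had been turned into dates and were kept as they stood. Alternatives were another scaling, pseudocount and filter, the block, fits of 2 genotypes, each library left out, input subtraction, centring, and other thresholds. Some items withheld for evaluation are not reported here.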

Additional observations from a re-analysis of the deposited data

How the results depend on the processing

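In the RNA of member genes, EZH2-/- +EZH2 against EZH2+/+ ESCs called 90, 149 with the block and 46 to 118 with 1 library left out. EZH2-/- against EZH2+/+ called 208, 249 with the block, 151 to 229 with 1 library left out, and this count stayed within 1.5 times in each alternative run. EZH2-/- against EZH2-/- +EZH2 called 22, 12 at a mean of at least 1 RPM, 55 with the block and 2 to 40 with 1 library left out. EZH2-/+ against EZH2+/+ called 8, 13 with median ratio scaling, 24 with the block, 1 to 36 with 1 library left out, and 0 by limma on those 2 genotypes alone, where 59 had an unadjusted p under 0.05. Of the fold changes of named genes, the block changed the call of 8, also those of MIXL1 (adjusted p = 0.0092) and IGDCC4 (0.0090) in EZH2-/- against EZH2+/+ and of FAM20A (0.039) and NCAM2 (0.033) in EZH2-/- against EZH2-/- +EZH2 ESCs. It changed no other call among them. Median ratio scaling moved the median of all genes from -0.15 to -0.03 and gave 93 higher and 12 lower members with DOX (88.6% higher, against 82.2%), beside 4.62% and 4.4% of all genes. Over 137 fold changes of named genes and 2439 alternatives, 2212 kept their side of the threshold, 186 lost and 41 gained a call, and 0 that were called changed sign. The rule found 455 members, 1000 at a threshold of -0.75, 111 at -1.5, 195 centred on promoters without H3K27me3, 277 with a pseudocount of 1 RPM, 763 with input subtracted (384 of the 455 among them) and 219 with EZH2-/+ as reference. Of 39 alternatives for the median mark differences at members, 22 stayed within the range of the main value. Centring gave -0.29 for H3K27me3, 0.83 for H3K4me3, 0.26 for H3K27ac and 0.059 for input in EZH2-/+ ESCs, -2.77 for H3K27me3, 0.43 for H3K4me3 and 0.63 for H3K27ac in EZH2-/- ESCs, and 0.37 for H3K4me3, 0.24 for H3K27ac, 0.16 for H3K4me1 and 0.033 for input in EZH2-/- +EZH2 ESCs. Subtracting input gave -0.61 for H3K27me3, 0.42 for H3K4me3, 0.24 for H3K27ac and, for H3K4me1, 0.010 in EZH2-/+ ESCs, and 0.029 for H3K4me3 and 0.036 for H3K4me1 in EZH2-/- +EZH2 ESCs. The CG density of members minus other marked promoters was -0.67 per 100 bases, and -0.20 over the whole window. The cause of these shifts was not tested. ChIP columns without replicates and counting errors near 0.186 (log2) limit the members near the threshold.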
